A study of Prunus persica with 18 samples.

Results

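PpSPL9.1 (PRUPE_6G256300), PpSPL9.2 (PRUPE_7G074200) and PpAP1 (PRUPE_1G290600) are 3 of the 26873 peach genes in the count table, taken by their identifiers as genes of the age-dependent flowering pathway and of floral identity. All 3 passed the filter on low counts, which kept 19754 genes over the 18 libraries. The libraries came from axillary buds of unsprayed shoots of Platinet 1, a flat nectarine,, cut 45, 58 or 79 days past full bloom (DAFB) and called T1, T3 and T5. Apical buds (from the upper part of the shoot, UP in the labels) and basal buds (from the lower part, DOWN) were kept apart, giving apical and basal groups at T1, T3 and T5, each with 3 biological replicates. All 6 groups share the cultivar, the orchard and the year, and each replicate pools the buds of several shoots, so that no value refers to a single bud or meristem.

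SPL9 genes encode SBP-box transcription factors. In Arabidopsis their transcripts are cut or blocked by miR156, a microRNA that declines as the plant ages, and the SPL9 protein then activates genes of floral identity, AP1 among them. AP1 is a MADS-box factor that gives a meristem its floral fate in Arabidopsis, where TFL1 acts against it in shoot meristems. In peach, flowers form inside axillary buds during summer, on shoots of the current season.

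Total counts per library ranged from 21114469 to 47286272. PpTFL1 and PpCEN, taken here as markers of the bud meristem, had counts in all 18 libraries. So had the mitotic cyclins PpCYCB1.2 and PpCYCB1.4, which mark dividing cells, with at least 36 reads for each gene and library. The study treats PpTFL1 and PpCEN as flowering genes whose levels change over time, so that their counts do not measure the amount of meristem. Apical T3 replicate 1 stood apart from its group: the chi-square statistic per gene was 139 and 144 against replicates 2 and 3, which gave 11.3 between themselves. Apical T5 replicate 1 gave 52.4 and 32.3 against replicates 2 and 3, with 14.8 between those. Most contrasts of the 3 genes that rest on these libraries are therefore also given without them. The values of the cyclins are given with all libraries only, and those of the other named genes mostly so. Levels are in CPM, the counts of a gene relative to the library total, scaled by the TMM method over all libraries and not divided by gene length, so that levels are not compared between genes. Since RNA came from pooled excised buds, fewer cells with a transcript and less transcript per cell cannot be told apart. How much of each sample was tissue around the bud is not given.

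Both SPL9 genes were high at T1 and T3 and low at T5 in buds of both positions. Their mean levels were higher in apical than in basal buds at every time, but only the difference of PpSPL9.2 at T1 was called. PpAP1 did not exceed 1.01 CPM in any library, and its one called change was a higher level at T5 than at T1 in apical buds.

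PpSPL9.1 had 111.5, 114.4 and 109.5 CPM in the apical T1 libraries, 89.0, 102.1 and 101.2 CPM at T3, and 32.7, 28.1 and 32.6 CPM at T5. In basal buds it had 89.9, 79.2 and 93.6 CPM at T1, 78.7, 74.9 and 86.3 CPM at T3, and 24.7, 22.0 and 18.4 CPM at T5. No T5 library of either position reached the lowest T1 or T3 library, and at each time the lowest apical library lay above the highest basal one. How many of all genes had separate groups was not counted, so that separation is description only, here and below. Full separation of 3 against 3 libraries gives an exact two-sided permutation p of 0.1. Ordered by mean, the levels were 111.8 ± 2.44 in apical T1, 97.4 ± 7.35 in apical T3, 87.6 ± 7.51 in basal T1, 80.0 ± 5.80 in basal T3, 31.1 ± 2.63 in apical T5 and 21.7 ± 3.17 CPM in basal T5 (SD, n = 3 each). In this order the libraries of apical T3 overlapped with those of basal T1, and those of basal T1 with those of basal T3, while the other neighbours were separate.

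PpSPL9.2 had 48.7, 50.9 and 46.7 CPM in the apical T1 libraries, 32.7, 49.2 and 50.6 CPM at T3, and 12.2, 11.6 and 13.0 CPM at T5. In basal buds it had 20.997, 20.9 and 23.5 CPM at T1, 22.6, 21.5 and 23.0 CPM at T3, and 8.87, 7.10 and 6.55 CPM at T5. The low apical T3 value, 32.7 CPM, belongs to replicate 1, and without it the mean of that group was 49.9 CPM, against 44.2 ± 9.93 CPM (SD, n = 3) with it. The groups ran from 48.8 ± 2.11 CPM in apical T1 and the apical T3 mean to 22.3 ± 0.768 CPM in basal T3, 21.8 ± 1.51 CPM in basal T1, 12.3 ± 0.663 CPM in apical T5 and 7.51 ± 1.21 CPM in basal T5 (SD, n = 3 each). Apical T1 overlapped with apical T3 and basal T3 with basal T1, and the remaining neighbours were separate.

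**Figure D1:**
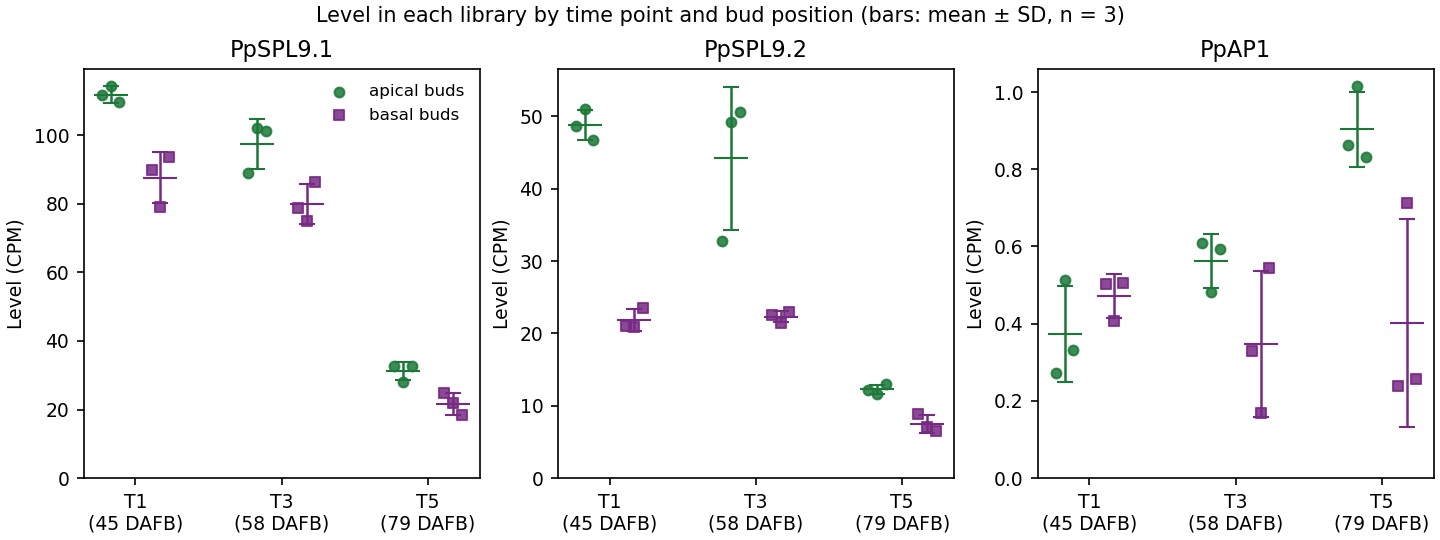
CPM of PpSPL9.1, PpSPL9.2 and PpAP1 (vertical axes, each starting at 0) at T1, T3 and T5 (45, 58 and 79 DAFB) in apical (circles) and basal (squares) buds, with each point 1 library and the bars the mean ± SD of 3. Both SPL9 genes drop at T5, and their apical libraries lie above the basal ones at each time. PpAP1 averaged 0.903 CPM in apical T5 buds and 0.403 CPM in basal T5 buds.

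Between T3 and T5, both SPL9 genes fell in both bud positions. A gene was called where the adjusted p of edgeR's quasi-likelihood test was below 0.01 and the change at least 2-fold, and genes called lower made up 12.1% of those tested in apical and 9% of those tested in basal buds. In apical buds, which were not used to pick these genes, the T5 level of PpSPL9.1 was 31.9% of that at T3, a log2 change of -1.66 (SE 0.110, edgeR adjusted p = 4.27e-06). For PpSPL9.2, 27.8% was left at T5 in apical buds, a log2 change of -1.86 (SE 0.162, edgeR adjusted p = 1.74e-05), and -2.03 without apical T3 replicate 1. The value of PpSPL9.1 was -1.71 without that library and -1.70 without apical T5 replicate 1, and that of PpSPL9.2 was -1.86 without the last. Only 5.70% and 4.50% of the 19636 genes tested in apical buds had a lower value than PpSPL9.1 and PpSPL9.2 in this contrast. The study picked both genes among those that differed in the basal libraries, so that the basal values, -1.87 (SE 0.104) for PpSPL9.1 and -1.55 (SE 0.107) for PpSPL9.2, are no independent evidence of their direction.

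Over the whole interval, with T5 set against T1, 2 of the 3 genes were called lower in each position, where 12.8% of the genes tested in apical and 9.96% in basal buds were. The log2 change in apical buds was -1.84 (SE 0.111) for PpSPL9.1 and -1.99 (SE 0.162) for PpSPL9.2, against -2.001 (SE 0.104) and -1.52 (SE 0.107) in basal buds. As the study picked both genes on the basal libraries, the basal calls and values are again no independent evidence. Without apical T5 replicate 1 the apical values were -1.88 and -1.98, both called. Both cyclins were called lower in this contrast in both positions. PpCYCB1.2 averaged 2.89 CPM in apical T5 buds, against 19.4 CPM at T1, and PpCYCB1.4 averaged 2.79 CPM, against 12.4 CPM. In basal buds PpCYCB1.2 averaged 2.71 CPM at T5 and 10.2 CPM at T1, and PpCYCB1.4 averaged 2.39 CPM and 7.37 CPM. With T5 set against T3, PpCYCB1.4 in basal buds was not called (log2 change -0.85). The part of the cyclins in the SPL9 result was not tested.

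From T1 to T3, none of the 3 genes was called in either position, and only 0.056% of the genes tested in apical and 1.05% in basal buds were called in either direction. All apical T3 libraries of PpSPL9.1 lay below all apical T1 libraries, but the log2 change was -0.18 (95% interval -0.42 to 0.06, edgeR adjusted p = 0.338), and -0.13 without apical T3 replicate 1. For PpSPL9.2 the apical log2 change was -0.13 (95% interval -0.47 to 0.22), and it was 0.04 without apical T3 replicate 1. The basal log2 changes were -0.13 (95% interval -0.34 to 0.08) for PpSPL9.1 and 0.03 (95% interval -0.18 to 0.25) for PpSPL9.2. All these intervals exclude a 2-fold change.

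**Figure D2:**
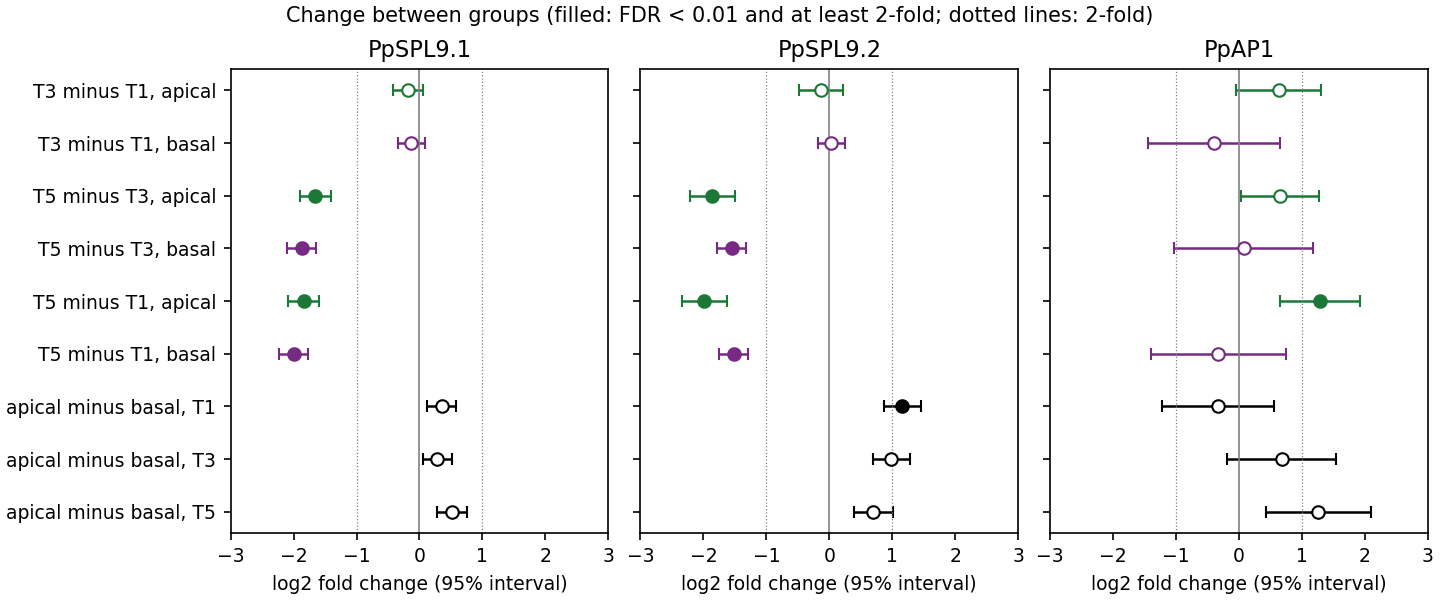
Log2 fold change of each gene (horizontal axes, with 95% intervals) for T3 minus T1, T5 minus T3 and T5 minus T1 in apical and basal buds, and for apical minus basal at T1, T3 and T5. Filled points passed both limits. For the SPL9 genes the 4 contrasts with T5 are filled, for PpSPL9.2 also apical minus basal at T1, with 1.16, and for PpAP1 only T5 minus T1 in apical buds, with 1.29.

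PpSPL9.2 was called higher in apical than in basal buds at T1, and its libraries were separate by position at T3 and T5 as well. At T1, where 3.49% of the 19754 genes were called higher in apical buds, PpSPL9.2 was 2.24-fold higher in apical than in basal buds, a log2 difference of 1.16 (SE 0.139, edgeR adjusted p = 4.03e-05), above the value of 96.2% of the genes. At T3, where 5.76% were called higher, its log2 difference was 0.98 (SE 0.139, edgeR adjusted p = 7.71e-05), just short of 2-fold. It was 1.16 without apical T3 replicate 1, and 1.00 without basal T3 replicate 3, and was called in both cases. At T5, where 0.82% were called higher, the log2 difference was 0.70 (SE 0.146, edgeR adjusted p = 0.00741), with a 95% interval from 0.39 to 1.01, and it was 0.70 without apical T5 replicate 1 as well. Without that library 489 genes were called at T5 in either direction, against 238 with all libraries.

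PpSPL9.1 was above the basal level in all 3 apical libraries at each time, by less than 2-fold. Its log2 difference was 0.35 at T1 (SE 0.107, edgeR adjusted p = 0.0247), 0.28 at T3 (SE 0.107, edgeR adjusted p = 0.0385) and 0.52 at T5 (SE 0.110, edgeR adjusted p = 0.00795), and none was called. Without the libraries that stood apart it was 0.35 at T3 and 0.48 at T5. With 1 library left out in turn, the largest edgeR adjusted p was 0.166 at T1, 0.133 at T3 and 0.0459 at T5. The cyclin libraries also lay higher in apical buds at T1 and T3, but overlapped at T5. The log2 difference of PpCYCB1.2 was 0.93 at T1, 1.43 at T3 and 0.04 at T5, and that of PpCYCB1.4 was 0.75, 1.52 and 0.17, with both called at T3. At T5 both SPL9 genes still had separate groups, a trait whose share over all genes was not counted. The part of the cyclins in these differences was not tested.

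None of the 3 genes had a called difference between positions in its change over time, where the share called in either direction was 0.0658% for T3 minus T1, 3.25% for T5 minus T3 and 1.87% for T5 minus T1. For PpSPL9.2 the change from T1 to T5 was more negative in apical buds by 0.46 on the log2 scale (95% interval of the difference -0.89 to -0.04), with an unadjusted p of 0.0343 and an edgeR adjusted p of 0.174. For PpSPL9.1 the same difference was 0.16 (95% interval -0.16 to 0.49, edgeR adjusted p = 0.579). Without apical T5 replicate 1 the values were -0.42 and 0.16. For T5 minus T3 the difference in change of PpSPL9.2 was -0.28 (edgeR adjusted p = 0.332), and -0.47 without apical T3 replicate 1 (edgeR adjusted p = 0.02496), and that of PpSPL9.1 was 0.23, and 0.17 without that library. For T3 minus T1 both genes lay within 0.01 of 0 without it, against -0.18 for PpSPL9.2 and -0.07 for PpSPL9.1 with it. No difference in change was called in any of these fits.

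The ratio of PpSPL9.1 to PpSPL9.2 counts does not depend on how libraries were scaled, and it was lower in each of the 9 apical libraries, at most 2.72, than in any of the 9 basal libraries, at least 2.79. It was 2.29, 2.25 and 2.34 in the apical T1 libraries, against 4.28, 3.79 and 3.98 in the basal T1 libraries. At T3 it was 2.72, 2.08 and 1.999 in apical buds, with the first value from replicate 1, against 3.49, 3.49 and 3.76 in basal buds. At T5 it was 2.68, 2.41 and 2.52 in apical buds, against 2.79, 3.10 and 2.81 in basal buds. The gap was smaller at T5 than at T1: the mean log2 ratio was 1.34 ± 0.0762 in apical and 1.53 ± 0.0851 in basal buds at T5, and 1.198 ± 0.0312 in apical and 2.005 ± 0.0884 in basal buds at T1 (SD, n = 3 each). In basal buds the libraries of T1, T3 and T5 did not overlap and became lower in that order, while apical T5 lay above apical T1. Apical T3 overlapped with both through replicate 1 alone, and without it apical T3, at 1.999 to 2.08, lay below all apical T1 and T5 libraries. As the genes were not corrected for length, the ratio itself is not one of transcript numbers, and it was given no test.

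**Figure D3:**
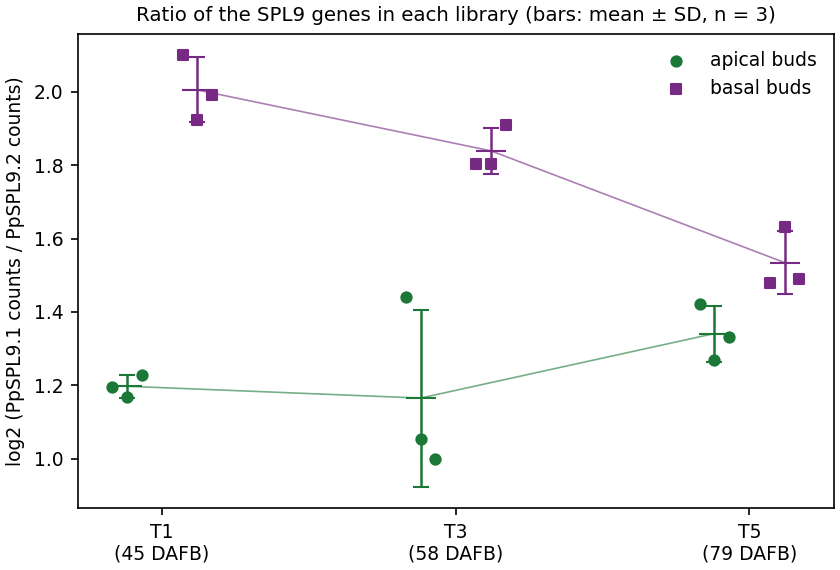
Log2 ratio of PpSPL9.1 to PpSPL9.2 counts (vertical axis) at T1, T3 and T5 (45, 58 and 79 DAFB) in apical (circles) and basal (squares) buds, with each point 1 library and the bars the mean ± SD of 3. The basal mean was 1.53 at T5, against 2.005 at T1. In apical T3, replicate 1 lies at 1.44, above its group.

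PpAP1 was counted at 9, 17 and 14 reads in the apical T1 libraries, 24, 10 and 23 at T3 and 37, 36 and 21 at T5. In basal buds it had 14, 14 and 16 reads at T1, 10, 6 and 23 at T3 and 11, 17 and 7 at T5. With counts this low the sampling of reads alone gives a coefficient of variation between 18.5% and 32.2% in a group, against between 1.58% and 6.82% for the SPL9 genes. The observed spread of PpAP1 lay between 10.8% in apical T5 and 66.9% in basal T5. It was below the spread from counting alone in apical T5 (18.5%), in apical T3 (12.4% against 24.8%) and in basal T1 (11.8% against 26.2%). The SD of these groups is therefore smaller than counting alone would give.

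On the CPM scale, PpAP1 averaged 0.373 ± 0.125 CPM in apical T1, 0.562 ± 0.0698 CPM in apical T3 and 0.903 ± 0.0979 CPM in apical T5 buds (SD, n = 3 each). In basal buds it averaged 0.472 ± 0.0558 CPM at T1, 0.347 ± 0.188 CPM at T3 and 0.403 ± 0.269 CPM at T5 (SD, n = 3 each). Apical T5 stood above all other groups without overlap, at 0.862, 1.01 and 0.833 CPM, and the nearest library of another group was basal T5 replicate 2, at 0.714 CPM. The 95% Poisson intervals of the raw reads overlap between that library (9.90 to 27.2) and apical T5 replicate 3 (13.0 to 32.1). Each pair of the other 5 groups overlapped.

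In apical buds the level of PpAP1 at T5 was 2.44-fold that at T1, a log2 change of 1.29 (SE 0.288, edgeR adjusted p = 0.00419), which passed both limits, as 9.51% of the genes tested did in that direction. The change is no longer called without apical T1 replicate 1 (1.11), without apical T1 replicate 3 (1.202) or without apical T5 replicate 2 (1.196), where the adjusted p was 0.0231, 0.0236 and 0.0177 in turn. Over all 14 alternatives the adjusted p ranged from 0.00201 to 0.0236, and without apical T5 replicate 1 the change was 1.32 (edgeR adjusted p = 0.00942). The log2 change between T3 and T5 in apical buds was 0.65 (SE 0.277, edgeR adjusted p = 0.0721) with no overlap, and that between T1 and T3 was 0.63 (SE 0.303, edgeR adjusted p = 0.271). Without apical T3 replicate 1 they were 0.71 and 0.57, and the T3 to T5 change was 0.69 without apical T5 replicate 1. In basal buds no contrast was called, with log2 changes of -0.40 for T3 minus T1, 0.07 for T5 minus T3 and -0.33 for T5 minus T1, each with a 95% interval wide enough to include a 2-fold change in at least 1 direction.

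At T5, PpAP1 was 2.39-fold higher in apical than in basal buds without overlap, a log2 difference of 1.26 (SE 0.395, edgeR adjusted p = 0.0551), which was not called. Without apical T5 replicate 1 it was 1.30 (edgeR adjusted p = 0.0676). With other libraries left out it ran from 0.92 without basal T5 replicate 1 (edgeR adjusted p = 0.231) to 1.87 without basal T5 replicate 2 (edgeR adjusted p = 0.0136). The difference was -0.34 at T1 and 0.68 at T3 (edgeR adjusted p = 0.611 and 0.179), and 0.62 at T3 without apical T3 replicate 1. The change from T1 to T5 differed between apical and basal buds by 1.60 on the log2 scale (95% interval 0.38 to 2.82), with an unadjusted p of 0.0135 and an edgeR adjusted p of 0.1001. That difference was 1.68 without apical T5 replicate 1, and ran from 1.27 to 2.21 over all libraries left out in turn (edgeR adjusted p = 0.244 and 0.0235, without basal T5 replicate 1 and 2). In a two-sided exact permutation test over samples, on log2(CPM + 0.1) and with time held fixed, apical and basal buds differed by 0.49 (p = 0.0760, adjusted p = 0.304 over 4 tests). That test ignores the pairing of both bud types of a replicate, and with the 9 pairs kept the exact p was 0.0977, with apical buds higher in 7 of 9 pairs. The unpaired difference was 0.47 without apical T3 replicate 1 and 0.49 without apical T5 replicate 1. With position held fixed, the time difference was averaged over both bud positions. It was 0.036 for T3 against T1 (exact permutation p = 0.895), 0.37 for T5 against T3 (p = 0.215) and 0.40 for T5 against T1 (p = 0.245). As apical and basal buds enter together, these tests do not address the apical rise by itself. The smallest p these designs allow is 0.00025 for position, 0.00391 with the pairs kept and 0.005 for time.

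**Figure D4:**
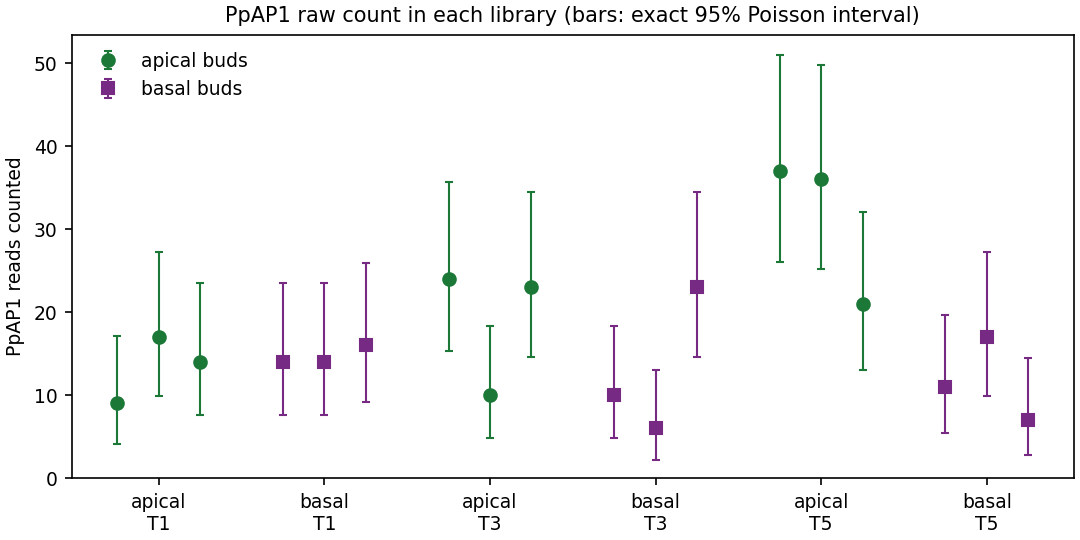
Raw PpAP1 reads (vertical axis, from 0) in each of the 18 libraries, grouped by time and position, with exact 95% Poisson intervals that cover counting error only. The 3 apical T5 libraries had 37, 36 and 21 reads, and the basal T5 libraries 11, 17 and 7.

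Of the other genes of flowering and trehalose-6-phosphate signalling that the study names, the list of 5 holds PpFT, the florigen gene, PpTFL1 and PpCEN, known as repressors of floral fate in related plants, and the trehalose-phosphate synthase genes PpTPS9 and PpTPS10. Between T3 and T5, 2 of the 5 were called higher and 1 lower in apical buds, as in basal buds. Among all genes tested, 8.67% in apical and 8.55% in basal buds were called higher, and 12.1% and 9% lower. The apical counts were the same without either library that stood apart. The study drew these 5 genes from pathways that it found higher at T5 than at T3 over all samples, apical buds included. Counts that set T5 against an earlier time are therefore no independent evidence of direction. PpTPS9 averaged 207.6 ± 36.6 CPM in apical T5, against 29.3 ± 3.95 CPM in apical T3 buds (SD, n = 3 each), in the opposite direction to the SPL9 genes, and PpTPS10 averaged 532.6 ± 86.6 CPM against 91.0 ± 31.4 CPM. The gene called lower was PpTFL1 in apical buds, with a log2 change of -1.85 (SE 0.203), and PpCEN in basal buds, with -1.31 (SE 0.164). PpTFL1 also fell in basal buds, by -0.98 (SE 0.139, edgeR adjusted p = 7.13e-05), just short of 2-fold. It was called there under library-size scaling (-1.11), without basal T3 replicate 3 (-1.05) and without basal T5 replicate 1 (-1.15). With an FDR of 0.05 and no fold limit it was called as well. Its difference in change between positions was -0.85 (edgeR adjusted p = 0.0344), not called. PpCEN in apical buds changed by -0.55 (edgeR adjusted p = 0.148), not called. The median log2 change of the list in apical buds was 0.46, against 0.00055 over all genes. That median is the value of PpFT, which was not called, and the members ran from -1.85 for PpTFL1 to 2.81 for PpTPS9, so that it shows no shared shift. With T5 set against T1, 3 of the 5 were called higher in apical buds, the third being PpFT with 1.19 (SE 0.176). In basal buds 2 were called higher and 1 lower. Among all genes tested, 9.51% in apical and 9.48% in basal buds were called higher, and 12.8% and 9.96% lower. None of the 5 was called between T1 and T3, between positions or for the difference in change, except that PpCEN was called higher in apical buds at T5 and for the difference in T5 minus T1 when apical T5 replicate 1 was left out.

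**Figure D5:**
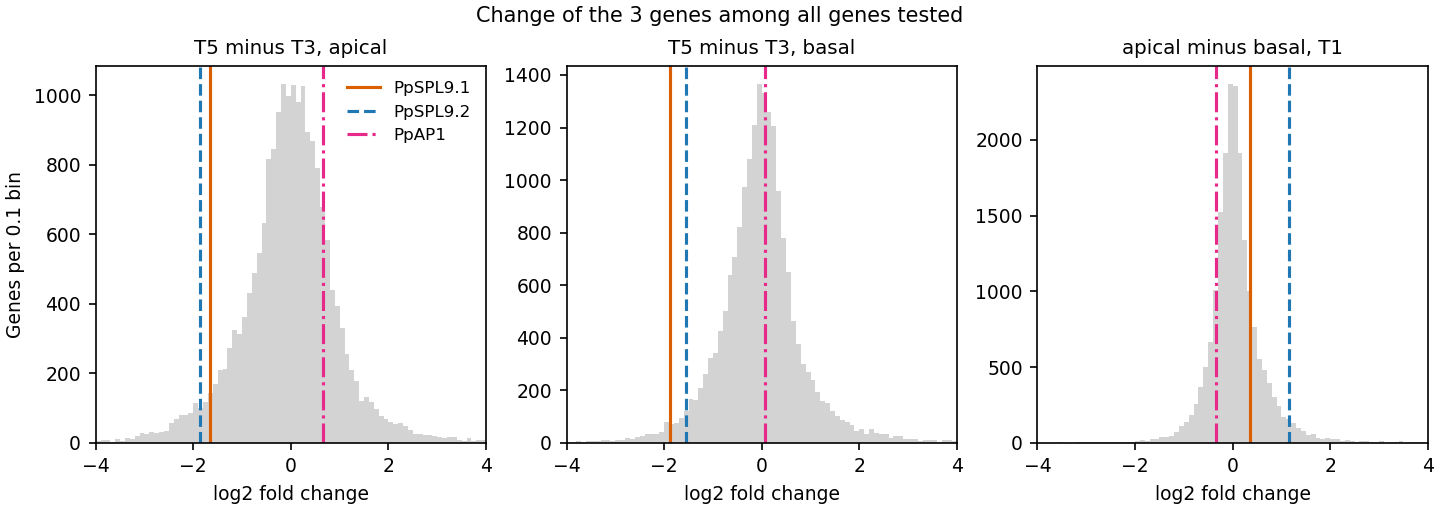
Number of genes per bin of 0.1 (vertical axes) by log2 fold change (horizontal axes), for T5 minus T3 in apical and basal buds and for apical minus basal buds at T1, with lines at the values of the 3 genes. The SPL9 genes lie in the lower tail of the time contrasts, at -1.66 and -1.86 in apical buds, and PpSPL9.2 lies in the upper tail of the position contrast, at 1.16.

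Across the 18 libraries the levels of the 2 SPL9 genes ran closely together, with a Pearson correlation of log2 CPM of 0.94. This describes points that share time groups and depth. PpSPL9.2 ranked 601 among 19753 genes by likeness to PpSPL9.1, and PpSPL9.1 ranked 314 by likeness to PpSPL9.2. The ranks depended on the measure: they were 159 and 12 by Spearman correlation, and 959 and 582 among 19875 genes without apical T3 replicate 1. The gene most like PpSPL9.1 was PRUPE_1G108900 (r = 0.99), which averaged 14.9, 11.6 and 1.70 CPM in apical buds and 9.94, 6.61 and 1.06 CPM in basal buds at T1, T3 and T5. The gene most like PpSPL9.2 was PRUPE_3G004100 (r = 0.99), with 388.5, 397.6 and 50.9 CPM in apical and 141.1, 129.1 and 22.8 CPM in basal buds. For PpAP1 the most like gene was PRUPE_7G263900 (r = 0.82), which averaged at most 0.485 CPM in any group, a level at which counting noise is large. The gene named for PpSPL9.1 and that for PpAP1 were other ones by Spearman correlation and without apical T3 replicate 1, and that for PpSPL9.2 was another by Spearman correlation. PpAP1 itself correlated with PpSPL9.1 at -0.18 and with PpSPL9.2 at -0.11 over these libraries.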

How the data were processed

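RNA-Seq counts of axillary buds of Platinet 1 in 6 groups of 3 were used. Per the labels, libraries were made with the TruSeq Stranded mRNA kit. Per the study's methods, they were sequenced on an Illumina NextSeq, and reads were checked with FastQC, aligned with HISAT2 to the peach genome v2.0.a1 and counted with HTSeq on the public gene models. The tool versions and the counting mode and strand setting are not given in the sources used here, and reads shared by overlapping or duplicated gene models may be divided or lost. The authors deposited raw counts per gene and library, with no normalization and the replicates kept apart, and no column was left unused.

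Counts were tested with edgeR 4.0.16 (quasi-likelihood, TMM, filterByExpr, R 4.3.3) on all genes, with Benjamini-Hochberg adjustment over 19304 genes in basal buds, 19636 in apical buds and 19754 over the 18 libraries. Time contrasts were fitted within each position, and apical minus basal and the differences in change in 1 fit of all groups. Calls needed an FDR below 0.01 and a 2-fold change, as in the study. The standard error was the change divided by the square root of F. Depth limits PpAP1, and 3 replicates limit all tests (smallest exact two-sided p for 3 against 3 is 0.1). Alternatives were DESeq2 1.42.0, other scaling, filters and thresholds, fits on other sets of libraries, a replicate block, and each library left out. The exact test used a pseudocount of 0.1 CPM. Its paired form and the 5-gene counts without single libraries were added after seeing the data.

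Within a time point, both bud types of a replicate were excised from 1 set of shoots, which pairs equal numbers. Deviations of these 9 pairs from their group means correlated between -0.067 and 0.177 (median 0.0209). Equal numbers are not stated to pair time points, and their correlations lay between -0.42 and 0.063.

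The 3 genes and the lists were chosen with earlier results of these data known. The lists are 5 flowering and trehalose-6-phosphate genes, 2 genes taken as meristem markers and 2 dividing-cell markers. The other named genes are the most correlated gene for each of the 3. Of 26873 identifiers, 0 matched the gene table used here, so that sequences and positions are not used here. Figures were drawn with matplotlib 3.10.9. The tests were tested on simulated data.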

Additional observations from a re-analysis of the deposited data

How the results depend on the processing

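The fall of both SPL9 genes at T5 against T3 and T1 was called in both positions under every alternative run, with leave-one-out log2 values between -2.11 and -1.43 for the pair. The call of PpSPL9.2 as higher in apical buds at T1 also held in every alternative run. For apical minus basal at T3 the value of PpSPL9.2 ranged from 0.87 to 1.16 when 1 library was left out, and was called in 2 of the 6 fits. The rise of PpAP1 between T1 and T5 in apical buds ranged from 1.11 to 1.56, called in 3 of 6. With an FDR of 0.05 and no fold limit, apical minus basal buds was called for PpSPL9.1 at T1 (0.35), T3 (0.28) and T5 (0.52) and for PpSPL9.2 at T3 (0.98) and T5 (0.70). With the replicate block in the apical fit, which ties equal numbers across time points that are not stated to be paired, the change of PpAP1 was 1.29 and was not called (adjusted p = 0.0129). The block changed no other call of the 3 genes, also where it pairs apical and basal buds of a replicate.

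Directions that reversed were all of changes without a call. With library-size scaling the change was -0.022 for PpSPL9.2 in T3 minus T1 in basal buds, -0.055 for PpAP1 in T5 minus T3 in basal buds and -0.020 for PpAP1 in the exact test of T3 minus T1. When 1 library was left out, the values were between -0.10 and 0.039 for the difference in change of PpSPL9.1, T3 minus T1, between -0.24 and 0.045 for PpSPL9.2 in T3 minus T1, apical, between -0.52 and 0.61 for PpAP1 in T5 minus T3, basal, between -0.92 and 0.016 for PpAP1 in T5 minus T1, basal, and between -0.12 and 0.20 for the exact test of T3 minus T1. The cause was not tested.

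The counts of called genes moved most where few were called. DESeq2 called 180 genes in T3 minus T1, apical, against 11 in edgeR, 373 against 238 in apical minus basal at T5, and 139, 1046 and 701 against 13, 642 and 370 for the differences in change. The replicate block gave 0, 157, 1, 339 and 239 for the same 5 contrasts. In T3 minus T1, apical, library-size scaling gave 5 and the fit of all 18 libraries 117, and leave-one-out fits gave 0 to 20. Fits of 1 time point gave 749 at T3, against 1808, and 52 at T5, against 238. For apical minus basal at T5, leave-one-out fits gave 97 to 489, the largest without apical T5 replicate 1. At an FDR of 0.05 without a fold limit, the 12 contrasts gave 112 to 13039 genes.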
